A study of Neurospora crassa with 84 samples.

Results

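The fertilization step of the ∆ve-1 mutant of Neurospora crassa in the dark was measured by RNA sequencing of the tissue 1 day after fertilization (day 1) and on the day of fertilization itself (day 0). The samples were chosen by their titles, which gave 3 libraries of day 1 and 3 libraries of day 0, 6 of the 84 libraries of the series. All 6 came from the ve-1 deletion strain of mating type mat A, in the OR74A background, in which ve-1, the gene of the velvet protein VE-1, was deleted. It was grown as the female parent on synthetic crossing medium, which is poor in nitrogen, under continuous darkness, and was fertilized with wild-type conidia of mating type mat a. Day 0 tissue was taken just before the conidia were added, and surface tissue was scraped from the plates at each time. The same step in the wild-type strain, also mat A, in the dark and in the ∆ve-1 mutant in constant light (3 libraries for each day) served for comparison. Every group rests on 1 strain, and tissue of replicates was pooled for RNA at each sampling point, so that p-values measure the spread between these pools, which may be technical. No unfertilized culture of the same age was among the groups, so fertilization, the RNA of the added conidia and a further day of growth cannot be told apart. Nor can a change in the number of cells of a type be told apart from a change in RNA per cell.

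In N. crassa the female strain forms protoperithecia, immature fruiting bodies that send out receptive hyphae (trichogynes) towards male cells of the other mating type. Mating types find each other by peptide pheromones and G-protein coupled receptors: ccg-4 encodes the pheromone of mat A cells and mfa-1 that of mat a cells. PRE-1 is the receptor borne by mat A cells and PRE-2 the one borne by mat a cells. After the cells fuse, the protoperithecium grows into a perithecium with a dark wall of melanin, inside which meiosis takes place and meiotic silencing turns off unpaired genes. VE-1 belongs to the velvet family of fungal transcription regulators, which act with the methyltransferase LAE-1 on development and secondary metabolism.

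Expression is given as counts per 1000000 reads assigned to genes after TMM scaling (CPM), for replicates 1, 2 and 3 in that order. The 6 libraries held 16.25 to 18 M counted reads (M, 1000000). ve-1 (NCU01731, chromosome II, 2607929 to 2611456) was at 7.78, 15.7 and 9.84 CPM on day 1, against 7.59, 6.26 and 6.97 CPM on day 0 in the mutant. Wild-type levels were 503 to 574 CPM on day 1 and 368 to 416 CPM on day 0, so every mutant library was far below every wild-type library. The labels do not say which stretch of ve-1 was removed, which limits what its low counts can check. Correlations of log2 CPM were 0.982 to 0.991 between the day 1 libraries and 0.957 to 0.98 between the day 0 libraries. Replicate 3 of day 0 lay nearest to day 1 (root mean square distance of 0.918 log2 units to the day 1 mean, against 1.25 and 1.11 for replicates 1 and 2), and replicate 2 of day 1 lay nearest to day 0 (0.95, against 1.05 and 1.15 for replicates 1 and 3). No replicate pair agreed within counting noise.

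On day 1 after fertilization 1074 of 9701 tested genes (11.1%) differed from day 0 in the mutant, and the change was mostly upward. Of these, 867 genes (8.94%) were higher and 207 (2.13%) were lower, at an adjusted p under 0.05 and a change beyond 2-fold (edgeR's quasi-likelihood test with Benjamini-Hochberg adjustment, the test behind every adjusted p given here unless another is named). The higher genes mostly had low levels before fertilization: their median was 13.6 CPM on day 1 and 1.92 CPM on day 0, and 119 of them had no count in any day 0 library. Their summed level was 122000 CPM on day 1 and 23300 CPM on day 0. The lower genes changed less and started higher, with medians of 19 CPM on day 1 and 52.1 CPM on day 0. Beyond 8-fold, 397 genes were higher and 7 lower. The median change of all tested genes was −0.02 on the log2 scale. The 3 day 1 and 3 day 0 libraries did not overlap in 839 of the 867 higher genes and 142 of the 207 lower genes, as they did not in 33.1% of all tested genes. With replicate 3 of day 0 and replicate 2 of day 1 both left out, a check added after the data were seen, 1388 genes were called (1047 higher, 341 lower), of which 1004 were among the 1074. A fit of the 6 libraries alone called 669 genes (606 higher, 63 lower).

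**Figure D1:**
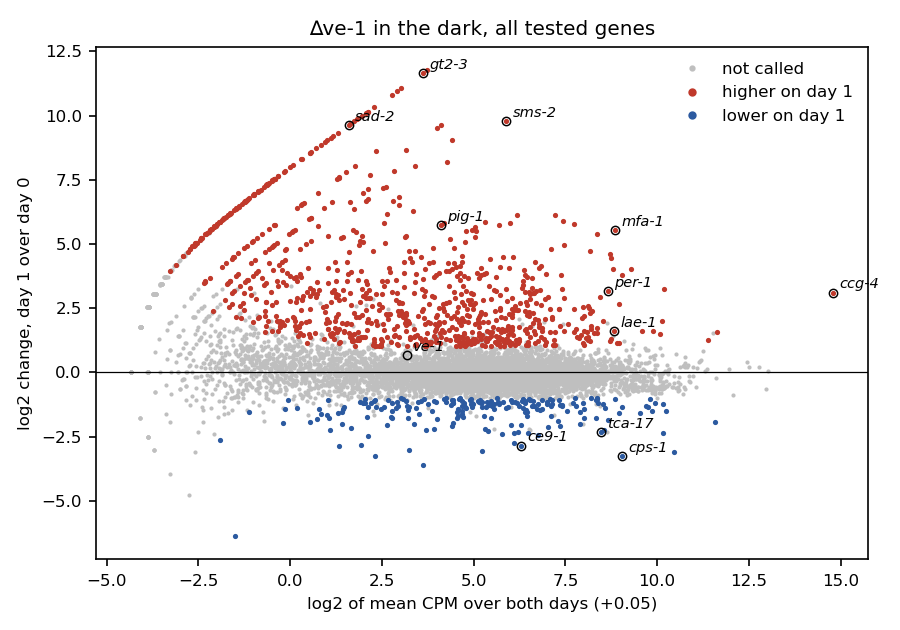
Log2 change of every tested gene between day 1 and day 0 in the dark-grown ∆ve-1 mutant (vertical axis) against the log2 of its mean CPM over both days (horizontal axis). Genes called higher on day 1 are red (867), genes called lower are blue (207), and the straight red edge at upper left is made of genes with no count on day 0, whose fitted change depends on the small constant added by the fit.

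Among the 10 largest rises by the fixed rule, 5 genes had no count in the 3 day 0 libraries, so their changes are given as lower bounds against 3 counts over the group. NCU02868 (chromosome I, 8863096 to 8865693), a predicted protein of unknown role, was at 19.2, 7.92 and 51.5 CPM on day 1, against 0 in each day 0 library, at least 464-fold higher (adjusted p = 4.14e-07). gt2-3 (NCU09875, chromosome I, 6373582 to 6375054), annotated as a capsule polysaccharide synthase, was at 18.7, 8.65 and 45.9 CPM on day 1, against 0 in each day 0 library, at least 433-fold higher (adjusted p = 3.22e-07). Both genes had counts in every day 1 library of this step and in no day 0 library of it, with replicate 2 of day 1 lowest and replicate 3 highest. The other 3 lie on chromosome V: NCU07243 (6120566 to 6121372), NCU07215 (6223717 to 6224199) and NCU07208 (6237807 to 6238634) were at least 291-, 272- and 245-fold higher. NCU07243 was not called by DESeq2's Wald test fitted to the 28 groups (DESeq2 adjusted p = 0.0935), but was called by DESeq2 on the 6 libraries alone (DESeq2 adjusted p = 3.21e-15). Another 4 genes of the 10, NCU05099, NCU08249, NCU10005 and the lectin gene tap-1 (NCU05651), had log2 changes of 8.67 to 9.63 and day 0 levels of 0 to 0.108 CPM.

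The 10 largest falls included genes of polysaccharide synthesis, amino sugar use and alcohol metabolism. cps-1 (NCU00911, chromosome I, 6778872 to 6782745), which encodes a polysaccharide synthase, was at 71.7, 103 and 123 CPM on day 1, against 1677, 821 and 372 CPM on day 0, a log2 change of −3.27 ± 0.561 (SE, n = 3 each, adjusted p = 6.72e-06). The groups were apart, but day 0 replicate 3 was the lowest of its group. NCU09693, a predicted protein of unknown role, was at 252, 225 and 404 CPM on day 1, against 4623, 1885 and 1008 CPM on day 0 (log2 −3.09 ± 0.414, adjusted p = 2.61e-08). ce9-1 (NCU04725), an N-acetylglucosamine-6-phosphate deacetylase, which acts in the use of the amino sugar of chitin, was at 11.8, 20.5 and 24.7 CPM on day 1, against 233, 46.4 and 131 CPM on day 0 (log2 −2.85 ± 0.483, adjusted p = 5.59e-06). Every day 1 value of these 3 genes lay below every day 0 value. adh-10 (NCU02128), an alcohol dehydrogenase gene, fell to 32.3, 33.4 and 36.2 CPM on day 1, against 363, 143 and 39.2 CPM on day 0 (log2 −2.42 ± 0.42, adjusted p = 8.98e-06), so that replicate 3 of day 0 stood close to the day 1 libraries. NCU03893, annotated as a short-chain dehydrogenase, had the same order of libraries, with 341 to 395 CPM on day 1 and 459 to 3795 CPM on day 0 (log2 −2.37). Both calls were lost in a fit of the 6 libraries alone (adjusted p = 0.0745 for adh-10 and 0.0727 for NCU03893). The remaining genes of the rule were NCU11291, NCU07981, NCU04396, NCU05888 and NCU07978, with log2 changes of −3.61 to −2.34. Of these, NCU11291 lost its call without replicate 1 of day 0 (log2 −1.69, adjusted p = 0.154), and NCU05888 and NCU07978 each lost theirs without any of 3 libraries (day 0 replicate 2 and day 1 replicate 3 for both, day 1 replicate 1 for NCU05888 and replicate 2 for NCU07978), with log2 −2.28 to −1.82 and adjusted p of 0.0629 to 0.0979.

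Both pheromone genes were higher after fertilization, while neither receptor gene was called. mfa-1 (NCU16992, chromosome V, 3396270 to 3397430), the pheromone gene of the mating type of the added conidia, was at 754, 669 and 1310 CPM on day 1, against 21.8, 19.9 and 16.6 CPM on day 0 (log2 5.55 ± 0.484, adjusted p = 4.08e-14). The days were separated by a wide gap. ccg-4 (NCU02500, chromosome I, 2531832 to 2533997), the pheromone gene of the female's own mating type, was at 46360, 28280 and 76770 CPM on day 1, against 1053, 2309 and 14170 CPM on day 0 (log2 3.11 ± 1.05, adjusted p = 0.0229). The groups did not overlap, but day 0 replicate 3 was far above the other day 0 libraries, and the call was lost without day 0 replicate 1 or 2 or day 1 replicate 3 (log2 2.61, 2.73 and 2.67; adjusted p = 0.131, 0.113 and 0.0866) and in a fit of the 6 libraries alone (adjusted p = 0.11). poi-2 (NCU05768), which encodes a mating response protein, was at 163, 596 and 178 CPM on day 1, against 6.24, 12.3 and 49.5 CPM on day 0 (log2 3.78 ± 1.18, adjusted p = 0.0138). Its libraries were apart, and its call was lost without day 0 replicate 1 or 2 or day 1 replicate 2 (log2 3.34, 3.49 and 2.91; adjusted p = 0.0887, 0.0725 and 0.0711). The receptor gene pre-1 (NCU00138) was at 12.6, 11.6 and 14.2 CPM on day 1 and 5.97, 12.1 and 29.9 CPM on day 0 (log2 −0.32 ± 0.363, adjusted p = 0.586), and pre-2 (NCU05758) was at 2.24, 3.01 and 2.25 CPM on day 1 and 3.77, 2.91 and 2.11 CPM on day 0 (log2 −0.23 ± 0.252, adjusted p = 0.576). For both receptor genes the 2 days overlapped.

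None of the 4 genes of the mating-type group was called by edgeR or DESeq2, where edgeR called 11.1% of all tested genes, so this count did not stand out. Of the 4, 1 had an unadjusted p under 0.05, as did 3302 of 9701 tested genes. mat A-1, a regulator of mating identity, averaged higher on day 1 (148, 139 and 203 CPM, against 37.4, 91.1 and 142 CPM on day 0), but the libraries overlapped (log2 0.85 ± 0.483, adjusted p = 0.21). mat A-2 and mat A-3 stood at log2 0.75 and −0.25. fmf-1 (NCU09387), a regulator needed for male and female fertility, was at 137, 82.9 and 157 CPM on day 1, against 4.63, 25.6 and 71.0 CPM on day 0 (log2 1.89 ± 0.757, adjusted p = 0.0597). Its libraries did not overlap, and it passed the threshold without replicate 3 of day 0 (log2 3.05, adjusted p = 0.00827). With the mean of days −2, −1 and 0 as the baseline, 3 of the genes were called higher and mat A-3 was not. These were mat A-1 (log2 1.53, adjusted p = 6.67e-04), mat A-2 (1.26, adjusted p = 0.0136) and fmf-1 (3.08, adjusted p = 7.77e-06).

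**Figure D2:**
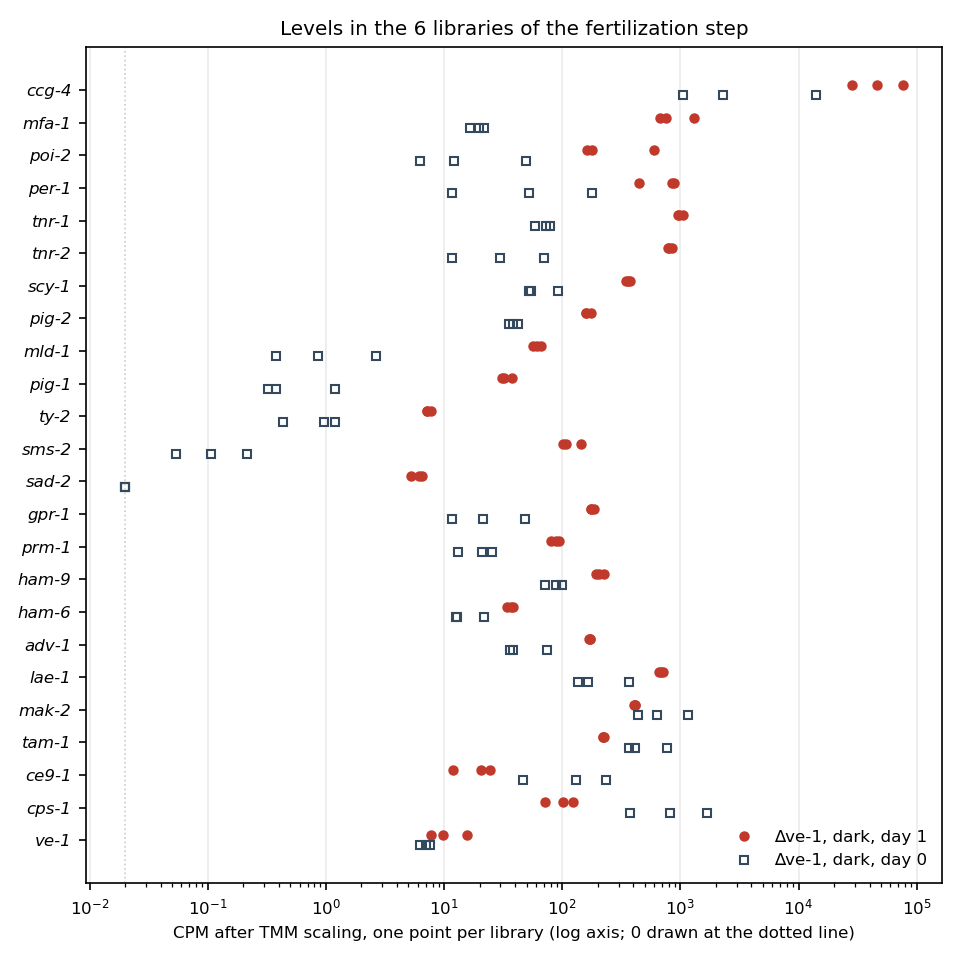
CPM of 24 named genes in each of the 6 libraries (horizontal log axis), with day 1 as filled red circles and day 0 as open squares, 1 point per library and counts of 0 drawn at the dotted line. Most melanin genes, mfa-1, sms-2 and sad-2 stand wide apart between the days. Several genes, ccg-4, gpr-1, per-1 and tnr-2 among them, show 1 day 0 library well above the others.

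The genes of melanin synthesis were the list with the most members called: 8 of 10 were higher, where 8.94% of all tested genes were, with a median log2 change of 3.12, against −0.02 over all tested genes. The lists were chosen with earlier results of these data known, and several list members came from the study's own tables of genes that responded in these samples. The count is therefore a description and not independent evidence. per-1 (NCU03584), the polyketide synthase that starts the pathway, was at 848, 879 and 444 CPM on day 1, against 11.6, 52.4 and 178 CPM on day 0 (log2 3.16 ± 0.713, adjusted p = 5.75e-04). tnr-1 (NCU09390), a tetrahydroxynaphthalene reductase, was at 1048, 983 and 947 CPM on day 1, against 59.3, 73.2 and 79.6 CPM on day 0 (log2 3.81 ± 0.395, adjusted p = 1.47e-11). tnr-2 (NCU06905), a further reductase of the pathway, was at 793, 795 and 854 CPM on day 1, against 11.7, 29.6 and 70.4 CPM on day 0 (log2 4.45 ± 0.613, adjusted p = 5.14e-08). In all 3 genes the days were clearly separate, although day 0 replicate 3 was the highest of its group. scy-1 (NCU07823), scytalone dehydratase, was at 345 to 376 CPM on day 1 and 52.1 to 92.2 CPM on day 0 (log2 2.45). pig-2 (NCU01903), an Ayg1-like pigment protein that shortens the polyketide in other fungi, was at 158 to 175 CPM on day 1 and 35.8 to 42.3 CPM on day 0 (log2 2.08). Both had their lowest day 1 library above the highest day 0 library. pig-1 (NCU05821) was at 37.8, 31.1 and 32.1 CPM on day 1, against 0.323, 0.378 and 1.19 CPM on day 0 (log2 5.72 ± 0.572, adjusted p = 4.74e-12). mld-1 (NCU04561, melanization defective-1) was at 66.0, 60.7 and 56.1 CPM on day 1, against 0.377, 0.863 and 2.65 CPM on day 0 (log2 5.55 ± 0.468, adjusted p = 1.71e-14). These 2 genes were close to silent before fertilization. ty-2 (NCU08615), a tyrosinase gene, was at 7.12 to 7.81 CPM on day 1 and 0.43 to 1.19 CPM on day 0 (log2 3.09). The laccase gene lacm-1 (log2 −0.05) and the tyrosinase gene T (NCU00776, log2 −0.56) were not called. Summed over the list, the libraries held 2970 to 3390 CPM on day 1 and 225 to 633 CPM on day 0.

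In the MAP kinase modules, which carry the pheromone, cell wall and osmotic signals, 1 of 12 genes was called, where 11.1% of all tested genes were, and the kinase genes themselves stayed under the 2-fold limit. By the adjusted p alone 4 of the 12 passed, adv-1, mak-2, mek-2 and os-4, where 23.9% of all tested genes did, so neither count stood out from all genes. adv-1 (NCU07392), a transcription factor gene for cell fusion and sexual development, was at 171, 171 and 167 CPM on day 1, against 73.8, 36.2 and 38.6 CPM on day 0 (log2 1.78 ± 0.22, adjusted p = 3.10e-09). Its day 1 values were nearly equal and all above day 0. mak-2 (NCU02393), the kinase of the pheromone response, was at 410, 406 and 411 CPM on day 1, against 1171, 635 and 437 CPM on day 0 (log2 −0.87 ± 0.19, adjusted p = 3.73e-04). It was lower by the adjusted p alone and passed the 2-fold limit too without replicate 3 of day 0 (log2 −1.14). Its upstream kinases nrc-1 and mek-2 and the downstream factor pp-1 had log2 changes of −0.27, −0.33 and −0.40. Log2 changes were −0.34 for mik-1, 0.04 for mek-1 and 0.15 for mak-1 in the cell wall module, and −0.31 for os-1, −0.46 for os-4, 0.19 for os-5 and −0.21 for os-2 in the osmotic module. The list's median was −0.29.

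Genes of cell fusion and female development held a few called members each. Of 14 hyphal fusion genes, 3 were higher and none was lower (median log2 0.29), where 8.94% of all tested genes were higher and 2.13% lower. prm-1 (NCU09337), a membrane protein gene for plasma membrane merger, was at 80.8, 89.3 and 93.8 CPM on day 1, against 13.1, 21.0 and 25.3 CPM on day 0 (log2 2.15 ± 0.193, adjusted p = 1.05e-13). ham-9 (NCU07389) was at 193 to 224 CPM on day 1 and 72.1 to 101 CPM on day 0 (log2 1.25), and ham-6 (NCU02767) at 33.9 to 38 CPM on day 1 and 12.7 to 21.8 CPM on day 0 (log2 1.19). All 3 genes separated the days, as 33.1% of all tested genes did. Of 14 regulators of female development, 1 was called (median −0.03), where 11.1% of all tested genes were. gpr-1 (NCU00786), a G-protein coupled receptor gene needed for normal fruiting body beaks, was at 186, 175 and 176 CPM on day 1, against 11.6, 21.5 and 48.7 CPM on day 0 (log2 2.71 ± 0.361, adjusted p = 2.06e-08). lae-1 (NCU00646), the methyltransferase partner of the velvet proteins, was at 656, 715 and 686 CPM on day 1, against 369, 165 and 136 CPM on day 0 (log2 1.62 ± 0.393, adjusted p = 0.00135). ve-1 itself rose by the adjusted p alone (log2 0.68 ± 0.231, adjusted p = 0.0253), with day 1 replicate 2 the highest, and without that library it was at log2 0.34 (adjusted p = 0.352).

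Of 13 genes of meiosis and meiotic silencing, 3 were higher, all of them genes of meiotic silencing (median log2 0.25), where 8.94% of all tested genes were higher. sms-2 (NCU09434, chromosome VII, 166762 to 170125), the Argonaute protein of meiotic silencing, was at 109, 102 and 146 CPM on day 1, against 0.108, 0.054 and 0.216 CPM on day 0 (log2 9.80 ± 0.828, adjusted p = 2.46e-14). sad-2 (NCU04294), a scaffold of the silencing complex, was at 6.1, 5.3 and 6.46 CPM on day 1, against 0 in each day 0 library, at least 108-fold higher (adjusted p = 1.07e-09). Both genes were on in all day 1 libraries and near or at 0 before. sad-1 (NCU02178), the RNA-directed RNA polymerase of meiotic silencing, was at 3.91, 4.46 and 5.33 CPM on day 1 and 1.08, 1.89 and 2.87 CPM on day 0 (log2 1.23 ± 0.401, adjusted p = 0.0186). That call was lost without day 0 replicate 1 or 2 or day 1 replicate 3 (log2 0.94 to 1.21, adjusted p of 0.0602 to 0.149) and in a fit of the 6 libraries alone (adjusted p = 0.0989).

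Over all tested genes 11.1% were called, 8.94% higher and 2.13% lower, and no count of called genes in this paragraph stood out from these shares. Of 15 genes of asexual sporulation and conidia, the spores that were added as male cells, 1 was called. It was ecd-2 (NCU08173), at 32.2 to 43.3 CPM on day 1 and 10.4 to 11.8 CPM on day 0 (log2 1.85), and the list summed to 28000 to 30700 CPM on day 1 and 17300 to 29900 CPM on day 0. None of 11 genes of carotenoids and the light response was called (log2 −0.14 to 1.42). There, 0 passed edgeR's adjusted p alone, 2 had an unadjusted p under 0.05 and DESeq2 called 1. Of 8 histone genes none was called, but 6 passed the adjusted p alone, with log2 changes of 0.48 to 0.86, where 23.9% of all tested genes did. An unadjusted p under 0.05 was reached by 7 of the 8, and DESeq2 called 0. Of 24 genes of DNA replication and nuclear division only the kinetochore gene kpr-11 was called, lower (log2 −1.0), and 10 alternatives moved it to the other side of the limits, with log2 −0.99 to −0.77. In nitrogen use, 2 of 20 genes were higher and 1 was lower. tam-2 (NCU05843), an ammonium transporter gene, was at 110 to 137 CPM on day 1 and 24.1 to 74.3 CPM on day 0 (log2 1.64), whereas tam-1 (NCU03257), of the same family, was at 220 to 225 CPM on day 1 and 366 to 765 CPM on day 0 (log2 −1.22). The 2 transporter genes thus moved in opposite directions, although tam-1 lost its call without replicate 1 of day 0 (log2 −0.82, adjusted p = 0.0791). The uricase gene use-1 rose (log2 1.29) and lost its call without day 0 replicate 2 or 3 or day 1 replicate 3 (log2 1.06 to 1.40, adjusted p of 0.0529 to 0.122). In cell wall synthesis the chitin synthase gene chs-6 (NCU05268) was the only member called of 13, at 93.6 to 94.4 CPM on day 1 and 10.6 to 38.9 CPM on day 0 (log2 2.13). In carbon reserves the sugar transporter gene sut-15 rose (log2 1.22) and the glycogen debranching gene gh13-7 fell (log2 −1.26), out of 18 genes, and both calls were lost without replicate 1 of day 0 (log2 1.11 and −0.72, adjusted p = 0.0763 and 0.109). Of 13 chaperone genes hsp30-2 rose (log2 1.52), a call lost without day 0 replicate 1 or 2 or day 1 replicate 2 (log2 1.11 to 1.49, adjusted p of 0.0545 to 0.16). None of 11 redox genes was called by edgeR or DESeq2, and 2 had an unadjusted p under 0.05.

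**Figure D3:**
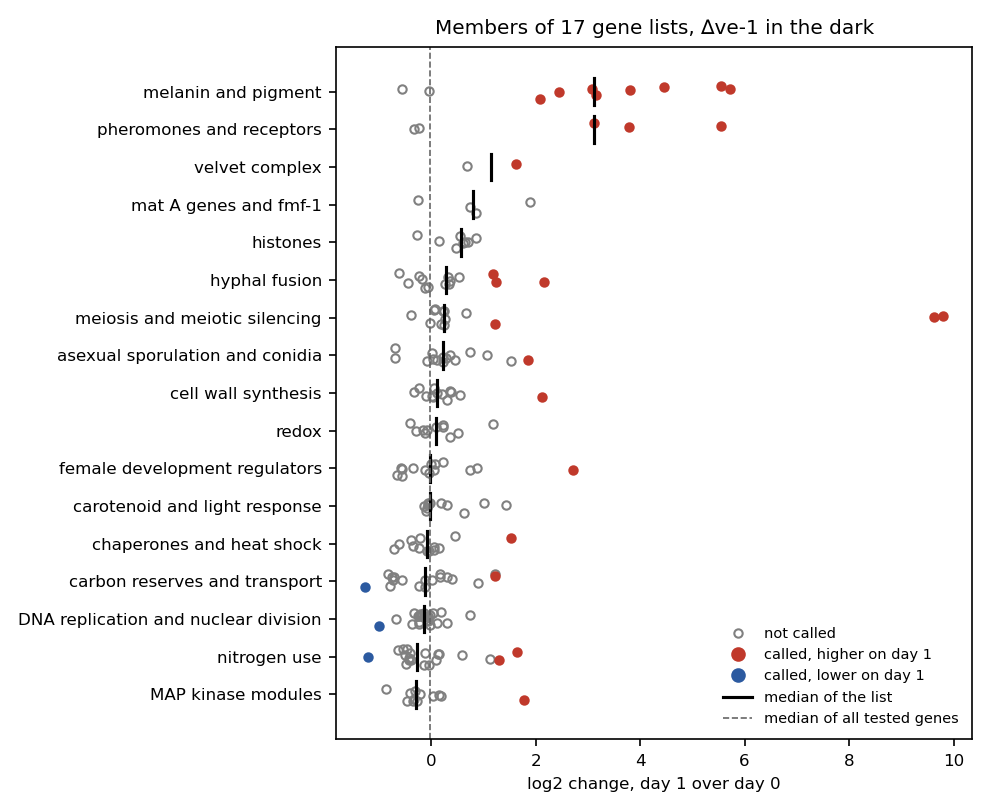
Log2 change between day 1 and day 0 (horizontal axis) of each tested member of 17 gene lists in the dark-grown ∆ve-1 mutant, with called members filled in red (higher) or blue (lower), list medians as black bars and the median of all tested genes as a dashed line. Melanin genes sit mostly between 2 and 6, and 2 meiotic silencing genes lie beyond 9.

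The genes that rose at this step stayed up afterwards in the mutant. Relative to day 0, the median of the 867 higher genes in log2(CPM + 0.5) was 1.77, 1.57, 1.74 and 1.58 on days 1, 2, 4 and 6 in the mutant in the dark. The 207 lower genes stayed down as well, at −1.27, −1.33, −1.28 and −1.20. Day 0 and day 1 chose these genes, so the day 1 values describe that choice, and all 4 days share the day 0 libraries. mfa-1 averaged 19.4 ± 2.63, 911 ± 348, 988 ± 240, 983 ± 288 and 734 ± 168 CPM (SD, n = 3 each) on days 0, 1, 2, 4 and 6. From day 1 on the ranges of mean ± SD overlapped. per-1 averaged 724 ± 242, 835 ± 97.3, 1840 ± 564 and 1701 ± 314 CPM on days 1, 2, 4 and 6, and poi-2 averaged 312 ± 246, 3014 ± 2418, 7653 ± 1072 and 13410 ± 7108 CPM. The poi-2 means thus stood higher at each later day.

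**Figure D4:**
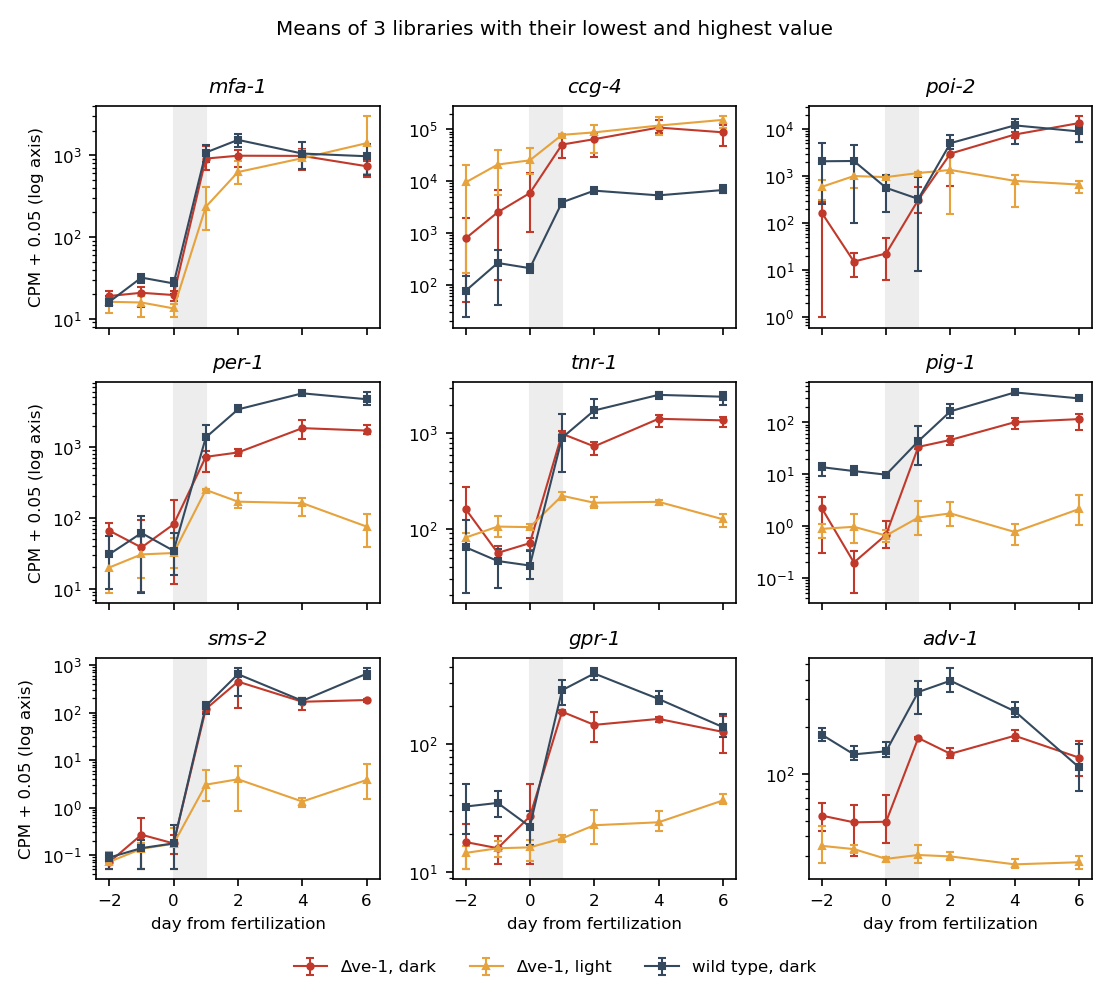
Mean CPM + 0.05 of 9 genes (vertical log axis, bars from the lowest to the highest of 3 libraries) against the day from fertilization, for the ∆ve-1 mutant in the dark, the ∆ve-1 mutant in light and the wild type in the dark, with the step between days 0 and 1 shaded. In the dark mfa-1 and sms-2 rise between days 0 and 1 in both strains, while sms-2 stays under 10 CPM in the mutant in light.

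Much of the step was shared with the wild type in the dark, for which the same contrast called 1278 genes (13.2%; 888 higher, 9.15%, and 390 lower, 4.02%) from other libraries. Of the rises, 581 were called in both strains, 67.0% of the mutant's 867 and 65.4% of the wild type's 888. Of the falls, 41 were called in both, 19.8% of the mutant's 207 and 10.5% of the wild type's 390. Pheromone and melanin genes rose in both: mfa-1 by log2 5.55 in the mutant and 5.33 in the wild type, with a difference of 0.23 ± 0.566, and tnr-2 by 4.45 and 3.84. sms-2 rose by 9.80 in the mutant and 9.97 in the wild type (difference −0.17 ± 1.72). For ccg-4 the difference was −1.11 ± 1.37 (adjusted p = 0.681), although its levels were higher in the mutant on both days (28280 to 76770 CPM on day 1 and 1053 to 14170 CPM on day 0 in the mutant, against 3131 to 4259 and 166 to 250 CPM in the wild type).

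The test of the difference itself, the mutant's step minus the wild type's, called 499 genes (5.14%), 312 with a higher (3.22%) and 187 with a lower change (1.93%) in the mutant. Of the mutant's 867 higher genes, 128 had a called higher difference and 21 a called lower one. Melanin synthesis held 2 genes with a called difference, pig-1 and pig-2. pig-1 was at 31.1 to 37.8 CPM on day 1 and 0.323 to 1.19 CPM on day 0 in the mutant, against 15.3 to 84 and 9.25 to 10.7 CPM in the wild type, a difference of log2 3.58 ± 0.71 (adjusted p = 6.10e-04). For pig-2 the difference was 1.48 ± 0.418 (adjusted p = 0.0186), a call lost without any of 4 libraries, day 0 replicate 1 of the mutant and day 0 replicate 2 and day 1 replicates 2 and 3 of the wild type (1.23 to 1.42, adjusted p of 0.053 to 0.0712). Among female development regulators, fsd-1 (NCU09915), a transcription factor gene for female sexual development, was at 719, 861 and 647 CPM on day 1, against 327, 474 and 416 CPM on day 0 in the mutant. In the wild type it was at 1152, 941 and 1419 CPM on day 1, against 223, 232 and 214 CPM on day 0. Its change was smaller in the mutant (log2 0.87, against 2.39 in the wild type, difference −1.52, adjusted p = 3.61e-04), and bek-1 differed by −1.52 too (adjusted p = 0.0195). The bek-1 call was lost without day 0 replicate 2 of the mutant or day 0 or day 1 replicate 1 of the wild type (−1.32 to −1.18, adjusted p of 0.0662 to 0.088). The catalase genes cat-1 and cat-3 had differences of 1.57 and 2.13 (adjusted p = 0.0022 and 0.0415), with cat-1 at log2 0.36 in the mutant and −1.21 in the wild type. kpr-11, lower in the mutant, stood at log2 0.10 in the wild type (difference −1.10 ± 0.342, adjusted p = 0.033). The differences of cat-3 and kpr-11 were each lost without any of 8 of the 12 libraries, all 3 day 1 libraries of the mutant among them for cat-3 (adjusted p of 0.0525 to 0.17) and day 0 replicates 1 and 2 and day 1 replicates 1 and 3 of the mutant for kpr-11 (adjusted p of 0.058 to 0.151).

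Of the genes with the largest differences, several were near 0 in 1 of the 4 groups, and their fitted values then depend on the constant added by the fit. NCU09163 was at 0.112 to 0.356 CPM on day 1 and 0 in each day 0 library of the mutant, against 0.284 to 0.402 CPM on day 1 and 4.76 to 33.0 CPM on day 0 in the wild type (fitted difference log2 10.48 ± 1.83, adjusted p = 1.89e-04). It was at least 4.34-fold higher on day 1 in the mutant, and that rise lost its call without any single day 0 library or day 1 replicate 1 or 3 (log2 4.58 to 5.02, adjusted p of 0.0794 to 0.134). NCU01071 had the same pattern (difference 7.85 ± 1.53), its wild-type level going down while the mutant stayed at or under 0.77 CPM on both days. The mutant's higher change in these 2 genes thus came with a fall in the wild type. NCU06121 rose to 11, 4.97 and 29.8 CPM on day 1 in the mutant, against 0.161, 0.054 and 0.162 CPM on day 0, with 4.27 to 9.77 CPM on day 1 and 0.886 to 6.22 CPM on day 0 in the wild type (difference 5.64 ± 1.30, adjusted p = 0.00326). NCU04282 was at 671 to 847 CPM on day 1 and 178 to 532 CPM on day 0 in the mutant, against 259 to 989 CPM on day 1 and 4.82 to 16.8 CPM on day 0 in the wild type (difference −4.60 ± 0.966, adjusted p = 0.00123). NCU06165 (difference −5.86, with no count on day 0 in the wild type), NCU04276 (−4.41), NCU07981 (−4.32) and NCU04267 (−3.59 ± 0.674, adjusted p = 3.05e-04) were the other genes with the largest lower differences. The calls of NCU04276, NCU06165 and NCU07981 were lost without any of 9, 4 and 4 of the 12 libraries, with adjusted p up to 0.129, 0.0652 and 0.139. These included every mutant library but day 0 replicate 3 for NCU04276, day 0 replicate 3 of the mutant and all 3 wild-type day 0 libraries for NCU06165, and day 1 replicate 3 of the mutant and day 1 replicate 1 and day 0 replicates 2 and 3 of the wild type for NCU07981. In 2 cases a gene fell in the mutant and rose in the wild type, NCU04621, a lipoxygenase gene (log2 −1.14 and 1.22), and NCU01926 (−1.39 and 1.60). NCU04621 was under the 2-fold limit in the mutant without day 0 replicate 1 (log2 −0.85). Both were named after their values were seen.

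**Figure D5:**
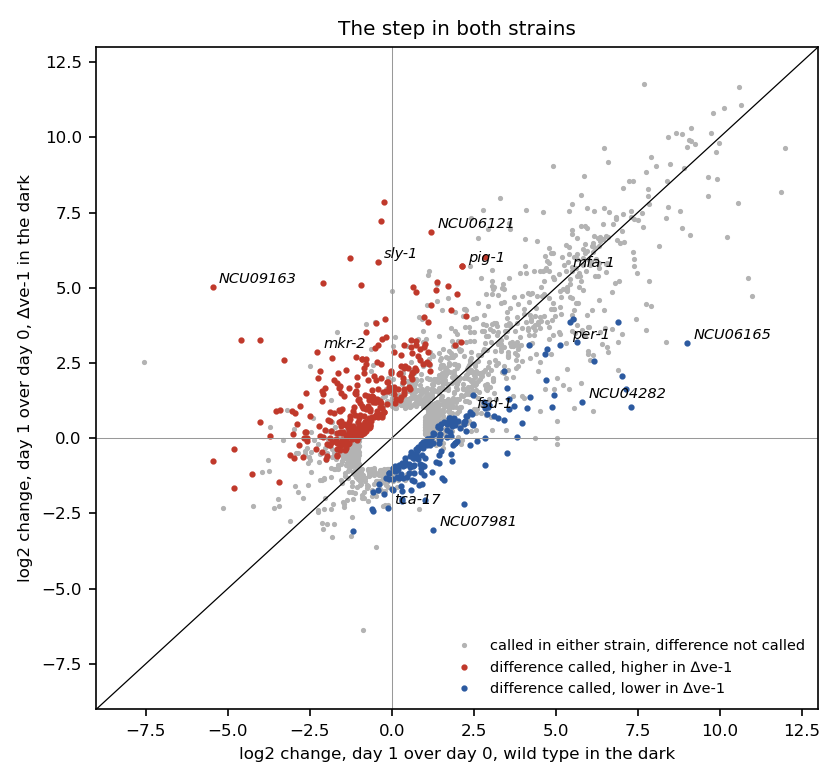
Log2 change between day 1 and day 0 in the dark-grown ∆ve-1 mutant (vertical axis) against that in the wild type in the dark (horizontal axis) for genes called in either strain or in the difference. Genes whose difference was called are red (higher in the mutant, 312) or blue (lower, 187), and the line marks equal change.

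The neighbouring genes NCU09968 (chromosome VI, 309546 to 315476) and sly-1 (NCU09969, 314113 to 320071, the transposase of a transposon), were the only ones with a wild-type level and no count in any of the 9 mutant libraries taken in the dark before fertilization. Their coordinates overlap, so reads at the overlap may count for either. NCU09968 had 0, 59 and 1 counts on day 1 in the mutant, and sly-1 had 0, 20 and 3, against 0 in every day 0 library. In the wild type they were at 88.6 to 96.0 and 25.9 to 29.5 CPM on day 1. Replicate 2 of day 1 held most of these counts, and it was also the library with the highest ve-1 count (281, against 153 and 166 in the others and 116 to 141 on day 0). The level of mfa-1, the pheromone gene of the mating type of the added conidia, was by contrast lowest in replicate 2 among the day 1 libraries. Over the 12 mutant libraries taken after fertilization in the dark, 9 held a count of NCU09968 and 6 a count of sly-1. The replicate 1 libraries among them held 1 count of NCU09968, on day 4, and no count of sly-1. Both genes were called higher at the step, at least 20.0- and 7.69-fold, and lost the call without replicate 2 of day 1 (log2 2.21 and 3.58, adjusted p = 0.643 and 0.114). The part that RNA of the wild-type conidia has in the other results was not tested.

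In light the mutant's own step was much smaller, with 265 genes called (2.73%; 222 higher, 2.29%, and 43 lower, 0.443%). Of the 867 genes higher in the dark, 137 were also higher in light (15.8% of 867 and 61.7% of 222). Over all 867 genes the median change from day 0 was 0.345 in log2(CPM + 0.5) on day 1 in light. The difference, the step in the dark minus the step in light, was called for 313 genes (3.23%), 242 higher (2.49%) and 71 lower (0.732%) in the dark. It was called for 218 of the 867 higher genes (25.1%). Of the 10 melanin genes, 5 were among them. mld-1 was at 56.1 to 66.0 CPM on day 1 and 0.377 to 2.65 CPM on day 0 in the dark, against 1.67 to 3.66 and 0.573 to 1.38 CPM in light (difference 4.30 ± 0.695, adjusted p = 1.16e-05). tnr-1 had a difference of 2.72 ± 0.508 (adjusted p = 1.83e-04), and pig-1 one of 4.52 ± 0.944 (adjusted p = 8.95e-04). The day 1 levels of these 3 genes in the dark were above every level in light. For per-1 the difference was 0.20 and was not called.

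Of the 14 hyphal fusion genes, 4 had a called higher difference from light (prm-1, ham-6, ham-9 and ham-7), where 2.49% of all tested genes did. For the 5 pheromone and receptor genes, edgeR and DESeq2 called 0 differences, where edgeR called 3.23% of all tested genes. An unadjusted p under 0.05 was reached by 2 of the 5. adv-1, of the MAP kinase list, was at 167 to 171 CPM on day 1 and 36.2 to 73.8 CPM on day 0 in the dark, against 27.2 to 35.2 and 27.4 to 29.6 CPM in light (difference 1.69 ± 0.306, adjusted p = 1.02e-04). prm-1 (2.08 ± 0.268, adjusted p = 6.42e-08), ham-6 (1.46), ham-9 (1.03), gpr-1 (2.48 ± 0.495), ecd-2 (1.83) and tam-2 (1.54) also had a called difference. For ham-6 it was lost in a fit of the 12 libraries alone (adjusted p = 0.0859). For ham-9 it fell under the 2-fold limit without any of 5 of the 12 libraries (0.91 to 0.98), and for tam-2 it was lost without any of 6 (adjusted p of 0.055 to 0.11), day 0 replicate 1 in the dark and day 0 replicate 1 in light among both. All 7 rose in the dark and were not called in light. ham-7 differed by 1.00 without being called in either step (log2 0.33 in the dark and −0.67 in light), and its difference fell under the 2-fold limit without any of 4 libraries, replicate 3 of both days in the dark and day 0 replicate 2 and day 1 replicate 3 in light (0.86 to 0.93). mfa-1 rose in light too, to 122 to 409 CPM on day 1 against 10.5 to 15 CPM on day 0, and its difference of 1.42 ± 0.572 was not called (adjusted p = 0.165). The clearest of the 5 largest higher differences was NCU07892, at 70.5, 31.2 and 92.1 CPM on day 1 and 1.13, 1.24 and 1.41 CPM on day 0 in the dark, against 1.36, 1.58 and 1.35 CPM on day 1 and 1.07, 1.71 and 1.49 CPM on day 0 in light (5.67 ± 0.642, adjusted p = 3.11e-09). The other 4 were NCU05572 (7.57), NCU06514 (6.10), NCU07204 (6.08) and NCU08085 (5.94). Without day 0 replicate 1 in light, NCU07204 was at 4.92 and NCU08085 at 4.49 (adjusted p = 0.0508 and 0.107), and NCU05572 was lost without day 0 replicate 1 or 3 in light or day 1 replicate 3 in the dark (adjusted p of 0.063 to 0.177). At the other end ce9-1 fell in the dark and stood at 106 to 137 CPM on day 1 and 36.1 to 88.2 CPM on day 0 in light (difference −3.80 ± 0.659, adjusted p = 4.65e-05). The methionine permease gene aap-23 (−3.45), the arylsulfatase gene ars-1 (−2.83), NCU09691 (−2.66) and NCU04396 (−2.54) followed, and each of these 4 calls was lost without any of 8 of the 12 libraries, among them day 1 replicates 1 and 3 in the dark and day 0 replicate 1 in light for all 4 (adjusted p of 0.0666 to 0.258, 0.0611 to 0.169, 0.0556 to 0.124 and 0.0527 to 0.129 in that order). Of these, aap-23 and NCU09691 were not called in the dark step (log2 −1.55 and 0.10).

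Called genes also lay side by side. There were 13 runs of at least 4 neighbouring higher genes in the table's order, and 1 run of lower genes; these were sought after the values were seen and are given as a description. The longest higher run held 10 genes on chromosome VII (886585 to 930085, NCU06953 to NCU12036), with log2 changes of 2.81 to 9.99, and all 10 were called in the wild type too. A run of 5 genes on chromosome I (8848772 to 8865693) ended with NCU02868, the gene with the largest rise. A run of 6 on chromosome VII (3746488 to 3763243) held poi-2 and the zinc finger gene znf-1, and 1 of its 6 genes was called in the wild type. None of the 6 had a called difference between the strains. Wild-type libraries varied widely there (poi-2 at 948, 25.6 and 9.60 CPM on day 1), so the missing wild-type calls do not set the run apart. In the mutant 5 of its 6 genes lost their call without any of 2 to 6 single libraries, day 0 replicates 1 and 2 among them in each (adjusted p of 0.0516 to 0.191). The run of lower genes lay on the mitochondrial chromosome (269 to 27191) and held 11 genes. Of 29 tested mitochondrial genes, 19 were lower and none was higher in the mutant in the dark, where 2.13% of all tested genes were lower, with a median log2 change of −1.34. In the mutant in light the median was −0.97, with 2 called lower and 20 at an unadjusted p under 0.05, and edgeR and DESeq2 called 0 of the 29 differences between dark and light, with 0 at an unadjusted p under 0.05. In the wild type edgeR called 0 (median −0.18), with 1 at an unadjusted p under 0.05. In the mutant in the dark, mitochondrial genes made up 0.0501, 0.0638 and 0.0707% of counts on day 1, against 0.222, 0.137 and 0.104% on day 0. With replicate 3 of day 0 and replicate 2 of day 1 left out, 17 were lower and the median was −1.52. That fit keeps day 0 replicate 1, which held the highest share, and values without it are not given for this set. Several of the 19 genes overlapped between the days, such as NCU16020 (12.6, 9.82 and 18.1 CPM on day 1, against 77.3, 20.9 and 15.6 CPM on day 0). Some also share coordinates, such as NCU16008 and NCU16009 in the run, so these counts are not counts of separate stretches. The libraries were made from RNA with a poly(A) tail, and the part that capture has in this share was not tested. The difference between the strains in the dark was called for 3 of the 29 genes.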

How the data were processed

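Per the labels and the study's methods, strand-specific poly(A) libraries were sequenced as read pairs, trimmed, aligned with STAR (version 2.7) to the NC12 genome and counted per gene with featureCounts by the authors. FastQC is also named in the submitters' processing notes. The deposited table holds these raw counts for 10590 genes in 84 libraries, 14.53 to 18.38 M counts each (M, 1000000). Counting noise is therefore small for all but the lowest genes, and floors (3 counts over a group) cover counting error only. The standard errors come from the quasi-likelihood test and so also hold the spread between libraries.

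Counts were filtered by group with filterByExpr, leaving 9701 genes, scaled by TMM and fitted with edgeR 4.0.16 (R 4.3.3) in 1 quasi-likelihood model of 28 groups. Contrasts were day 1 against day 0 in the mutant in the dark, the same step in the wild type and in light, and the 2 differences of steps. Genes were called at a Benjamini-Hochberg adjusted p under 0.05 and a log2 change beyond 1; standard errors are the log2 change over the root of F. DESeq2 1.42.0, size factors, no filter, the 6 or 12 libraries alone, a replicate block, an earlier baseline and each library left out were the alternatives. On simulated counts with 3 against 3 libraries for the mutant's step in the dark, 93% of 100 genes changed 3-fold and 99% of 100 changed 8-fold were recovered, with 3 false calls among 9485 unchanged genes. The changed genes were drawn only above a minimum day 0 level, which was higher than the 1.92 CPM median of the 867 higher genes. No simulated library stood apart from its group. The rates therefore do not cover genes near 0 or the outlying libraries of this step.

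Named genes were ve-1, the 10 largest changes in each direction among called genes without overlap and with at least 10 CPM, the 5 largest in each direction for each difference, called members of 17 lists (up to 4 in each direction; all members for pheromones, mat A genes and MAP kinase modules) and the genes counted in the wild type but not in the mutant before fertilization. Other names were chosen after their values were seen: fsd-1, bek-1, cat-1, cat-3, the remaining melanin genes, neighbours in runs and the genes of the closing section. Members and lists were chosen with earlier results of these data known. Several members came from the study's supplementary tables, which hold genes that responded in these samples, so a list is not independent evidence. Symbols came from RefSeq and the study's tables; 207 of 210 list members matched. Positions are those of the deposited table.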

Additional observations from a re-analysis of the deposited data

Results flagged for a closer look

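In 35 named genes the test of the difference between steps was itself called, in 36 comparisons, which marks a step that differed between strains or between dark and light. All values are log2 differences from edgeR's quasi-likelihood test with Benjamini-Hochberg adjustment, with 3 libraries in each of the 4 groups.

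Between the mutant and the wild type in the dark, the mutant's change was higher for NCU09163 (10.48), NCU01071 (7.85), NCU09968 (7.53), sly-1 (6.27), NCU06121 (5.64) and pig-1 (3.58). It was lower for NCU06165 (−5.86), NCU04282 (−4.60), NCU04276 (−4.41), NCU07981 (−4.32), NCU04267 (−3.59), NCU09693 (−1.92), adh-10 (−1.85), NCU03893 (−1.78) and kpr-11 (−1.10).

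Between dark and light in the mutant, the change in the dark was higher for NCU05572 (7.57), NCU06514 (6.10), NCU07204 (6.08), NCU08085 (5.94), NCU07892 (5.67), pig-1 (4.52), mld-1 (4.30), tnr-1 (2.72), gpr-1 (2.48), prm-1 (2.08), ecd-2 (1.83), adv-1 (1.69), tam-2 (1.54), ham-6 (1.46) and ham-9 (1.03). It was lower for ce9-1 (−3.80), aap-23 (−3.45), ars-1 (−2.83), NCU09691 (−2.66), NCU04396 (−2.54) and cps-1 (−2.40). The smallest of these effects by significance was aap-23 (adjusted p = 0.0495).

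Without day 0 replicate 1 of the mutant in the dark, 3 of the lower differences from the wild type came to −1.13 for NCU09693, −0.83 for NCU03893 and −0.85 for adh-10 (adjusted p = 0.227, 0.311 and 0.396). These calls were also lost without any of 3, 2 and 7 other libraries. Without day 1 replicate 2 of the mutant the differences of NCU09968 and sly-1 came to 2.53 and 4.00 (adjusted p = 0.686 and 0.147). The cps-1 difference from light was lost without any of 10 of the 12 libraries (adjusted p of 0.0544 to 0.2).

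Genes with no count in a group, such as NCU09163, sly-1 and NCU06165, have differences whose size depends on the fit's added constant.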

How the results depend on the processing

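No called value changed direction under any alternative. Of the named genes, 40 of 56 step calls, 6 of 15 called differences from the wild type and 11 of 21 called differences from light were kept whichever library was left out. Leave-one-out counts ran from 853 (without day 0 replicate 1) to 1339 (without day 0 replicate 3) against 1074 genes for the step, from 325 (without day 0 replicate 1 of the mutant) to 729 (without its day 0 replicate 3) against 499 for the difference from the wild type, and from 228 to 401 against 313 for the difference from light. Depth limits only the lowest genes, since 3 counts over the 3 libraries of a group are 0.0586 CPM on day 1 and 0.0585 CPM on day 0. Without the fold limit the step count was 2315 and the difference from the wild type 805. With the libraries of each contrast fitted alone, the step count was 669 and the difference from the wild type 276. In that fit the step calls of NCU11291, NCU05888, adh-10, NCU03893, ars-1, ccg-4, kpr-11, hsp30-2, tam-2, sad-1 and gh13-7 were lost. So were the differences from the wild type of NCU09693, NCU07981, adh-10, NCU03893, NCU09968, sly-1, NCU06165, NCU04276 and kpr-11 and those from light of cps-1, aap-23, ars-1, ham-6 and tam-2. Adjusted p was 0.0523 to 0.25 for all of these but the step of kpr-11. That step passed the adjusted p (0.0498) and was lost on the 2-fold limit alone (log2 −0.99). DESeq2 called 1090, 575 and 428 genes for the 3 comparisons. Between day 1 and day 0, correlations of deviations were −0.03, 0.31 and 0.07 for equal replicate numbers and −0.205 to 0.155 for unequal ones. The value for replicate 2 (0.31) was the highest of all. These few values do not settle whether replicate numbers pair the samples. With a replicate block, 1088 genes were called for the step in the fit of all groups and 667 in the 6 libraries alone, and for the difference from the wild type 148 in its 12 libraries.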

Other observations

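The genes below were named after their values were seen, and their values are a description. Lower on day 1 in the mutant in the dark were, among others, the sulfate permease genes cys-14 (38, 111 and 29.3 CPM on day 1, against 169, 196 and 127 CPM on day 0, log2 −1.46) and cys-13 (log2 −1.39), the taurine dioxygenase genes tdo-2 (−2.13), tdo-3 (−2.05) and tdo-5 (−1.63), met-8 (−1.34) and cys-16 (−1.22). Of these, cys-14, cys-13, tdo-2 and tdo-5 were also called lower in the wild type (−1.20, −2.12, −1.48 and −1.07). In all 7 genes day 1 replicate 2 was the highest of its day. Without single libraries the calls of cys-14, cys-13, tdo-3 and cys-16 were lost, day 1 replicates 1 and 3 for each (adjusted p of 0.0576 to 0.139). cys-3, the regulator of sulfur genes, was at 248 to 261 CPM on day 1 and 251 to 313 CPM on day 0 (log2 −0.17). Other lower genes were the alcohol dehydrogenase gene adh-1 (421, 576 and 897 CPM on day 1, against 3467, 1502 and 445 CPM on day 0, log2 −1.51), the pyruvate decarboxylase gene cfp (−1.68) and the lactate dehydrogenase gene tca-17 (106, 118 and 130 CPM on day 1, against 1191, 393 and 198 CPM on day 0, −2.33). For adh-1 and tca-17 the difference from the wild type was called (−2.44 and −2.21, adjusted p = 0.0253 and 2.09e-04), and replicate 3 of day 0 was the lowest of its day in all 3. The calls of adh-1 and cfp were lost without replicate 1 of day 0 (log2 −0.62 and −0.82, adjusted p = 0.481 and 0.261), and the adh-1 difference was lost without any of 5 of 12 libraries (adjusted p of 0.0612 to 0.221).

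Laccase genes that were called higher included lacc (155, 222 and 234 CPM on day 1, against 25.9, 27.0 and 13.6 CPM on day 0, log2 3.20), lacc-3 (3.85) and lacc-8 (2.90). They were picked because they were called, and the laccase gene lacm-1 of the melanin list was not called. qa-5 rose by log2 6.14 in the mutant and 5.88 in the wild type. tpd-1, a terpenoid gene, was at 945 to 1374 CPM on day 1 and 56.9 to 99.3 CPM on day 0 in the mutant, against 1073 to 1911 and 675 to 758 CPM in the wild type (difference 3.07, adjusted p = 2.09e-04). Levels of the strains were thus close on day 1 and far apart on day 0. stk-44, a kinase gene, and gtp-5 had differences of 2.79 and 2.32.

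On chromosome I, fbm-1 (fruiting body maturation-1) was at 50.7, 13.7 and 99.1 CPM on day 1, against 4.09, 8.63 and 13.7 CPM on day 0 in the mutant, while the wild type was at 481 to 942 CPM on day 1 and 1217 to 1417 CPM on day 0. Its step differed between the strains by log2 3.40 (adjusted p = 0.0141). Of its neighbours, mkr-2 rose in the mutant and fell in the wild type (log2 2.87 and −2.28, difference 5.15, adjusted p = 2.80e-04), and mkr-6 and srdD had differences of 4.33 and 4.30. The mkr-6 difference was lost without day 0 replicate 1 of the mutant (adjusted p = 0.0546). Without day 1 replicate 3 of the mutant the rises of fbm-1 and mkr-2 were lost (adjusted p = 0.0606 and 0.108), as were the differences of fbm-1 and srdD (adjusted p = 0.0592 to 0.0837 and 0.0505 to 0.0582, without day 0 replicate 1 of the mutant too). In each of these genes every mutant library lay below every wild-type library on both days.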
